A study of Mus musculus with 7 samples.

Results

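The genes described here are 9 mouse genes known from mast cells and basophils: Cpa3, Tpsb2, Cma1 and Mcpt8 (granule proteases), Hdc (histamine synthesis), Fcer1a, Ms4a2 and Fcer1g (the IgE receptor) and Il1rl1 (the interleukin-33 receptor). They were chosen by symbol, through the Ensembl gene identifiers of GENCODE mouse release M21, and all 9 were found among the 55855 rows of the deposited table. Of the 9, 6 had a mean level high enough to be tested. RNA of hematopoietic stem cells from mouse bone marrow was sequenced in 4 libraries labelled Fth1△/△, called Fth1-deleted here, and 3 libraries labelled Fth1fl/fl, called floxed here, all from mice aged 2 months. Fth1 encodes the ferritin heavy chain, and its deletion was conditional in the hematopoietic system, per the series text, which calls the comparison cells WT although their label gives the floxed allele. The Cre driver, any inducing agent, the sorting markers, the sex of the mice and whether each library came from a separate animal are not given in the sources used here, so p-values measure only the spread between libraries, which may be technical.

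Mast cells and basophils store proteases and histamine in granules and release them when IgE bound to its high-affinity receptor is cross-linked by antigen. The receptor is built from an IgE-binding alpha chain (Fcer1a), a signal-amplifying beta chain (Ms4a2) and a gamma chain dimer (Fcer1g) that also serves Fc receptors of other myeloid cells. In mice, both cell types arise from bone marrow progenitors that use the transcription factor Gata2, and Cpa3 is known to be transcribed in progenitors before granules form. Il1rl1 responds to interleukin-33 and is also found on type 2 lymphoid cells.

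Because transcription factors of the GATA family act on many of these genes, the stretch before the transcription start was read from RefSeq (GRCm38.p6), which had an entry for 8 of the 9 genes and none matched for Tpsb2. The 250 bases before each start were searched on both strands for the letters GATAA, the core of a GATA site. They occurred in 6 of 9 windows, from 5 of the 8 genes, and in 22.6% of all 32851 RefSeq windows of this length. The match is a description of letters and not evidence of binding. The windows shown belong to Cpa3, which differed most between the groups (chr3:20242182-20242431, minus strand), to both starts of Il1rl1 (chr1:40429320-40429569 and chr1:40439379-40439628, plus strand), to Ms4a2, which held 3 matches (chr19:11623720-11623969, minus strand), and to Cma1, seen in a single library (chr14:55944676-55944925, minus strand). Each runs 5′ to 3′ on the gene's own strand and ends at the base before the start, with matches in capitals.
Cpa3: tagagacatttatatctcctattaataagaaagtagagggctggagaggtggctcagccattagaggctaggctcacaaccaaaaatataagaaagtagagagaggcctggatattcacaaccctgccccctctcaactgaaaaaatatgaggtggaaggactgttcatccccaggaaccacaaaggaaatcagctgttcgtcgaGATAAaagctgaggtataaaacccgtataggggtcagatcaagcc
Il1rl1, upstream start: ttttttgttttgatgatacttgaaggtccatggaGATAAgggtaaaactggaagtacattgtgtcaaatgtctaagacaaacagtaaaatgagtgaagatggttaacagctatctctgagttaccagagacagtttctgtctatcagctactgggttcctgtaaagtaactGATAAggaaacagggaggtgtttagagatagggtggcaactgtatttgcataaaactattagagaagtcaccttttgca
Il1rl1, downstream start: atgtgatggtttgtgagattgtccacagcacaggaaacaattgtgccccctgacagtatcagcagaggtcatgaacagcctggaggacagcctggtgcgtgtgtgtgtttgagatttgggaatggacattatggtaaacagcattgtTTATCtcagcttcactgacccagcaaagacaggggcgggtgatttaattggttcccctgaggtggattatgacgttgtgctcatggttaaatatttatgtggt
Ms4a2: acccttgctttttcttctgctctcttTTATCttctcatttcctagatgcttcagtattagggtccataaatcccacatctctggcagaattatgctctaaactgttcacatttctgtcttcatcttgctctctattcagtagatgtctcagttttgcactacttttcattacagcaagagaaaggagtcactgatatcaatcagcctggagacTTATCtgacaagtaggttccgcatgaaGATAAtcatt
Cma1: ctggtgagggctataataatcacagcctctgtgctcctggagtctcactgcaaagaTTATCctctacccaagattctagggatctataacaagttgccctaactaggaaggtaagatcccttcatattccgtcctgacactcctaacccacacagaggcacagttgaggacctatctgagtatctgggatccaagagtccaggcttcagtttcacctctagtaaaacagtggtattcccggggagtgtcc
The single match of Cpa3 began 45 bases before the start. In Ms4a2 they began 224, 37 and 10 bases before it, and in Cma1 194 bases before it. The upstream start of Il1rl1 had matches at 216 and 79 bases and the downstream start at 103 bases. Mouse mast cells are known to use the upstream start and fibroblasts the downstream start, but a value per gene does not separate these transcripts. The windows of Hdc, Fcer1g and Mcpt8 held no such letters, which says only that these letters are not in this window. The Hdc window (chr2:126618679-126618928, minus strand) lies inside the GENCODE span of Hdc, so the bases before the GENCODE start were not searched. Those of Fcer1g and Mcpt8 overlap the GENCODE span of their gene in part. The other motifs searched on both strands, none of which overlapped another in these windows, were CATGTG (12.3% of all windows), TGTGGT (14.0%) and TTCNNNGAA (7.02%). CATGTG was found in the Fcer1a window, TGTGGT in those of Cpa3, Fcer1a, Mcpt8 and the downstream start of Il1rl1, and TTCNNNGAA in none of the 9.

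Levels are given as FPKM, the authors' read counts scaled by gene length and by the counted reads of the library, and the number of reads behind a value was recovered from it. Libraries held 12806902 to 15453169 counted reads in Fth1-deleted cells and 12058396 to 15046065 in floxed cells. Fth1 itself was at 202, 333, 358 and 114 FPKM in the Fth1-deleted libraries, against 552, 659 and 638 FPKM in the floxed libraries, so every Fth1-deleted library was below every floxed one. Differences are Fth1-deleted minus floxed on the log2(FPKM + 1) scale, which understates the change of low genes, with the standard error (SE). They were tested with limma over the 13948 genes with a mean of at least 1 FPKM, with Benjamini-Hochberg adjustment and a threshold of 0.05. The mean difference of a single gene was also given an exact permutation test (two-sided), which with 4 and 3 libraries has 35 arrangements and cannot reach a p below 0.0286. In bulk RNA, more cells of a type and more RNA per cell cannot be told apart.

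No member passed the threshold in limma, against 8 of all 13948 tested genes (0.0574%), with 4 higher (0.0287%) and 4 lower (0.0287%). This split was not stable: limma-voom called 5 genes with 0 higher, and 13 were called with 11 higher without floxed library 2. Of the members, 1, Cpa3, had an unadjusted p under 0.05, as had 9.83% of all tested genes, and 1 had groups that did not overlap, as had 9.65%. Counting members at 0, the 9 genes were above 0 in 3, 5, 5 and 7 cases in Fth1-deleted libraries 1 to 4, and in 5, 1 and 2 cases in floxed libraries 1 to 3. Over the whole table, 14882, 13991, 13907 and 14563 genes were above 0 in the Fth1-deleted libraries, against 13597, 13973 and 13320 in the floxed libraries. The summed level of the 9 genes was 70.6, 71.5, 69.8 and 95.9 FPKM in the Fth1-deleted libraries, against 52.7, 26.0 and 16.5 FPKM in the floxed libraries. Fcer1g and Cpa3 together made most of each sum. All 6 tested members had a positive log2 difference, with a median of 1.18, where 48.7% of all tested genes were positive and their median was -0.02. The signs of Ms4a2 and Fcer1g turned under other settings. These 6 are the members that reached the level filter, not all members, and a member can reach it through 1 group or 1 library, so the count and median are a description only.

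**Figure D1:**
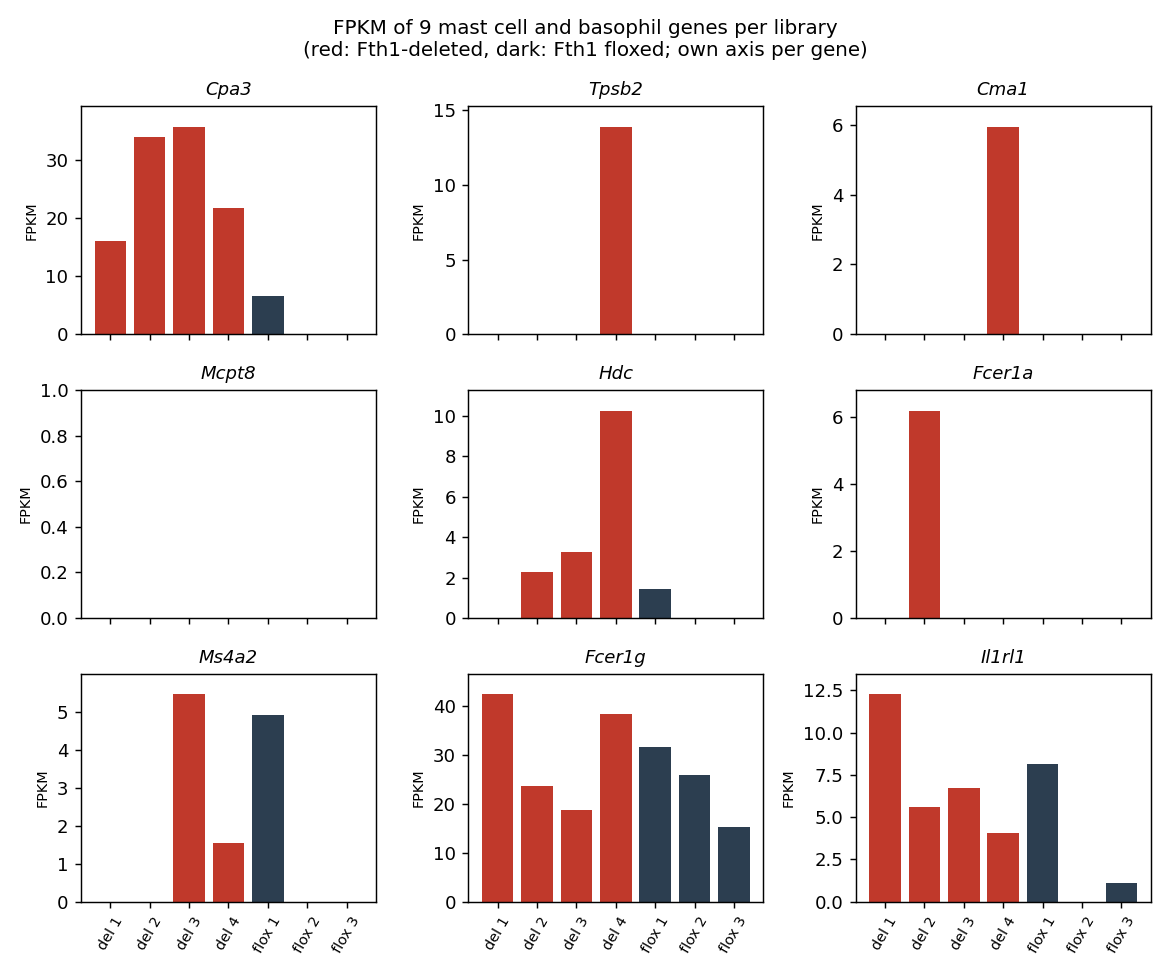
FPKM of each of the 9 genes (vertical axis, own scale per gene) in the 4 Fth1-deleted libraries (red) and the 3 floxed libraries (dark), with 1 bar per library and no bar at 0. Cpa3 is above 16 FPKM in every Fth1-deleted library and at most 6.55 FPKM in the floxed ones, while Tpsb2, Cma1 and Fcer1a each appear in 1 library and Mcpt8 in none.

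Among the proteases, Cpa3 differed most. Cpa3 (ENSMUSG00000001865, GRCm38 chr3:20215620-20242181, minus strand) encodes the carboxypeptidase A of mast cell granules. It was at 16.0, 33.9, 35.7 and 21.8 FPKM in the Fth1-deleted libraries, worth 229, 426, 422 and 298 reads, against 6.55, 0 and 0 FPKM in the floxed libraries, worth 84, 0 and 0 reads. All 4 Fth1-deleted libraries were above all 3 floxed libraries, so the groups did not overlap. Of all tested genes, 4.1% were likewise higher without overlap. The means were 26.8 ± 9.47 FPKM in Fth1-deleted and 2.18 ± 3.78 FPKM in floxed libraries (SD, n = 4 and 3), a 12.3-fold ratio. The log2 difference was 3.76 (SE 0.70), with an unadjusted p of 0.000169 and a limma adjusted p of 0.0983, and the exact permutation test gave its smallest possible p of 0.0286. Of all tested genes, 11 had a larger log2 difference. The call depended on floxed library 1, the only floxed library with Cpa3 reads: without it the log2 difference was 4.73 (SE 0.52) and the limma adjusted p was 0.0205. All other settings gave adjusted p-values above the threshold, with a range over all alternatives of 0.0205 to 0.684. The share of ribosomal RNA reads, mitochondrial ribosomal RNA included, also moved with the groups. It was 1.44%, 1.47%, 1.49% and 1.57% in the Fth1-deleted libraries, against 0.414%, 1.09% and 0.266% in the floxed libraries. With the log2 of this share as a covariate, added after seeing the data, the log2 difference of Cpa3 was 4.30 (SE 1.25, limma adjusted p = 0.233). Every Fth1-deleted share was above every floxed share, so this covariate and the group can hardly be separated. Differences given with it are extrapolations, and 0 members and 0 genes of the other lists passed the threshold with it.

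**Figure D2:**
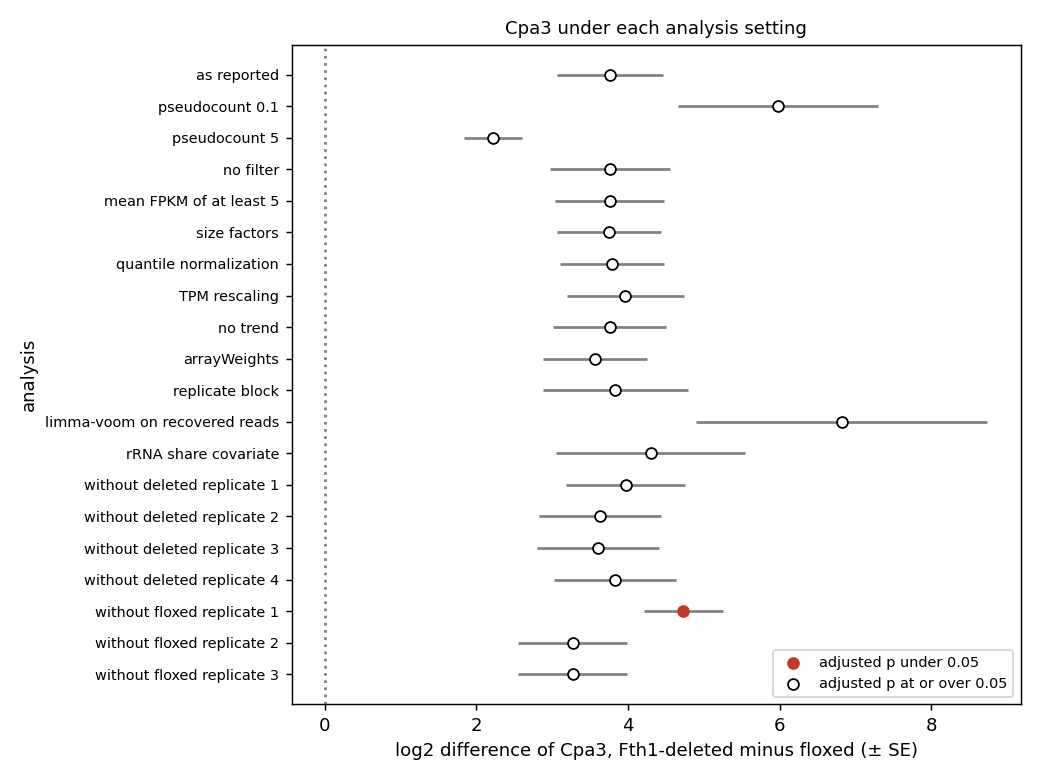
Log2 difference of Cpa3, Fth1-deleted minus floxed, on the horizontal axis under the reported analysis and 19 alternatives (rows), with bars of 1 SE. All values are positive, from 2.22 to 6.82, and the filled point, without floxed replicate 1, is the only value with an adjusted p under 0.05.

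The tryptase and chymase genes were seen in Fth1-deleted library 4 alone. Tpsb2 (ENSMUSG00000033825, chr17:25366305-25369098, plus strand), a tryptase of connective tissue mast cells in mice, was at 13.9 FPKM there, worth 227 reads, and at 0 in the other 6 libraries. Cma1 (ENSMUSG00000022225, chr14:55941451-55944675, minus strand), a chymase of the same cells, was at 5.93 FPKM there, worth 95 reads, and at 0 in the other 6 libraries. Mcpt4, another mouse chymase, shared this distribution with 10.7 FPKM, worth 175 reads. A gene seen in 1 Fth1-deleted library alone cannot be compared between the groups by permutation, since the p is 1.0 whatever its level. In limma, Tpsb2 had a log2 difference of 0.97 (SE 1.04, adjusted p = 0.780), which rests on this library.

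The same library held other transcripts that no other library showed. Of 62 genes with at least 50 reads in it and none elsewhere, the most abundant were immunoglobulin genes such as Ighg2c (5289 reads) and Igkv10-96 (2807 reads), and Tnfrsf17, a receptor of plasma cells, had 85 reads. The read minimum and these names were chosen after their values were seen. The other libraries had 64, 119 and 121 such genes among the Fth1-deleted and 184, 265 and 98 among the floxed, so genes seen in a single library were common in all of them. An immunoglobulin gene also headed those of Fth1-deleted library 1 (Igkv1-122, 4812 reads), Fth1-deleted library 3 (Ighv1-7, 2742 reads) and floxed library 3 (Ighv1-75, 1727 reads). Immunoglobulin genes took 0.179%, 0.00208%, 0.135% and 0.543% of reads in the Fth1-deleted libraries, against 0.00166%, 0.000279% and 0.107% in the floxed libraries. The T cell genes Cd3d and Cd3g and the eosinophil gene Prg2 were also above 0 in this library alone, at 2.49, 1.53 and 2.98 FPKM. The part of other cell types in the tryptase and chymase reads was not tested.

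Mcpt8 (ENSMUSG00000022157, chr14:56082166-56085273, minus strand), the protease that marks mouse basophils, had 0 reads in all 7 libraries, which allows at most 0.218 to 0.279 FPKM per library at 3 reads, by counting error alone. Prss34, a basophil tryptase in mice, and Cd200r3, a surface receptor of mouse mast cells and basophils, were also at 0 in all 7. So were Tpsab1, Tpsg1, Cma2, Mcpt1, Mcpt2 and Mcpt9 of the same protease families. The longest transcript of each member was compared with those of other genes, and the best matches by length times identity were kept. Among these the highest identity was 96.9%, over 295 bases between Cma1 and Gm48934, which was at 0 in every library. Tpsb2 and Tpsab1 matched at 74.5% over 491 bases, and Ms4a2 and Ms4a4b, which reached 3.74 FPKM, at 84.3% over 995 bases. Short stretches of Il1rl1 matched 2 genes of higher level, Chd9 at 90.4% over 177 bases (up to 47.7 FPKM) and B230219D22Rik at 91.4% over 174 bases (up to 51.5 FPKM), and whether reads were shared was not tested.

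Hdc (ENSMUSG00000027360, chr2:126593667-126619299, minus strand) encodes histidine decarboxylase, the enzyme that makes histamine. It was at 0, 2.28, 3.26 and 10.3 FPKM in the Fth1-deleted libraries, worth 0, 52, 70 and 255 reads, against 1.46, 0 and 0 FPKM in the floxed libraries, worth 34, 0 and 0 reads. The highest value was in the library that held the tryptase and chymases, and the groups overlapped because Fth1-deleted library 1 had none. The means were 3.95 ± 4.43 and 0.487 ± 0.843 FPKM (SD, n = 4 Fth1-deleted and 3 floxed), with a log2 difference of 1.39 (SE 0.88, limma adjusted p = 0.640), and of 0.83 without Fth1-deleted library 4. Slc18a2, the transporter that loads histamine and other amines into vesicles, was far more abundant than Hdc, at 63.1 ± 17.6 FPKM in Fth1-deleted and 56.4 ± 27.9 FPKM in floxed libraries (SD, n = 4 and 3; log2 difference 0.22, SE 0.32, limma adjusted p = 0.841).

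The chains of the IgE receptor did not share a pattern. Fcer1a (ENSMUSG00000005339, chr1:173221284-173227214, minus strand), the IgE-binding chain, was at 6.20 FPKM in Fth1-deleted library 2, worth 77 reads, and at 0 in the other 6. Ms4a2 (ENSMUSG00000024680, chr19:11615523-11623719, minus strand), the beta chain, was at 0, 0, 5.45 and 1.55 FPKM in the Fth1-deleted libraries, against 4.90, 0 and 0 FPKM in the floxed libraries. No library held reads of both Fcer1a and Ms4a2. Ms4a2 had a log2 difference of 0.16 (SE 0.96) and an adjusted p of 0.968 in limma, and its sign turned without Fth1-deleted library 3 (-0.40) and without floxed library 2 or 3 (-0.27 each). Fcer1g (ENSMUSG00000058715, chr1:171229572-171234365, minus strand), the gamma chain, was present in every library, at 42.4, 23.6, 18.7 and 38.4 FPKM in the Fth1-deleted libraries, against 31.7, 26.0 and 15.3 FPKM in the floxed libraries. Its groups overlapped, with means of 30.8 ± 11.4 and 24.3 ± 8.29 FPKM (SD, n = 4 Fth1-deleted and 3 floxed) and a log2 difference of 0.31 (SE 0.37, limma adjusted p = 0.802). The Fcer1g difference was -0.12 with the ribosomal RNA covariate and ranged from 0.02 without floxed library 3 to 0.52 without floxed library 1. Since Fcer1g also serves other myeloid receptors, its level does not measure the IgE receptor. Tyrobp, an adaptor of the same kind in myeloid cells, was at 18.6 ± 9.45 FPKM in Fth1-deleted and 11.4 ± 0.341 FPKM in floxed libraries (SD, n = 4 and 3).

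Il1rl1 (ENSMUSG00000026069, chr1:40429570-40465415, plus strand), the interleukin-33 receptor, was at 12.3, 5.61, 6.74 and 4.05 FPKM in the Fth1-deleted libraries, worth 553, 223, 252 and 175 reads, against 8.11, 0 and 1.14 FPKM in the floxed libraries, worth 329, 0 and 40 reads. The groups overlapped through floxed library 1, which exceeded 3 of the 4 Fth1-deleted libraries. The means were 7.16 ± 3.57 and 3.08 ± 4.39 FPKM (SD, n = 4 Fth1-deleted and 3 floxed), with a log2 difference of 1.51 (SE 0.75, limma adjusted p = 0.551; exact permutation p = 0.171). The log2 difference was 2.39 without floxed library 1, 0.79 without floxed library 2 and 2.87 with the ribosomal RNA covariate, and Il1rl1 passed the threshold in none of these. Il1rap, the shared second chain of the receptor, was at 1.62, 1.35, 4.36 and 2.32 FPKM in the Fth1-deleted libraries, against 2.70, 6.32 and 8.24 FPKM in the floxed libraries (log2 difference -0.96, SE 0.61, limma adjusted p = 0.641). Il7r, which marks lymphoid cells that can carry Il1rl1, was at 0 in all 7 libraries. It is 1 of 3 genes at 0 throughout among 11 genes of NK and innate lymphoid cells. Each library held 3 to 5 of these 11 genes above 0, and the part of such cells in the Il1rl1 reads was not tested.

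Within the floxed group the members were unevenly spread. Floxed library 1 held all floxed reads of Cpa3, Hdc and Ms4a2 and 329 of the floxed reads of Il1rl1, whereas floxed library 2 had reads of Fcer1g alone. The order of member levels was Fcer1g, Cpa3, Il1rl1, Hdc, Tpsb2, Ms4a2, Fcer1a, Cma1 and Mcpt8 by mean FPKM of the Fth1-deleted libraries. Fcer1g and Cpa3 stood at the top, at 30.8 ± 11.4 and 26.8 ± 9.47 FPKM (SD, n = 4), and members were not tested against each other. In the floxed libraries the order began with Fcer1g at 24.3 ± 8.29 FPKM, followed by Il1rl1 at 3.08 ± 4.39, Cpa3 at 2.18 ± 3.78, Ms4a2 at 1.63 ± 2.83 and Hdc at 0.487 ± 0.843 FPKM (SD, n = 3). The order of the last 4 is not resolved, since Cpa3, Ms4a2 and Hdc rest on floxed library 1 alone.

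None of the other genes on 5 lists of these cells passed the threshold. Of 20 further granule and mediator genes, 8 were at 0 in all libraries and 11 were tested, and 0 of these rose or fell. Of the 11 tested, the groups of Alox5, Alox5ap and Hpgds did not overlap, which held for 9.65% of all tested genes. Alox5, the lipoxygenase that starts leukotriene synthesis, was at 8.21, 6.44, 19.3 and 16.3 FPKM in the Fth1-deleted libraries, against 0 FPKM in all 3 floxed libraries. Its mean was at least 100.3-fold higher than 3 reads per floxed library (log2 difference 3.64, SE 0.60, limma adjusted p = 0.0667). Without the mean-variance trend the adjusted p was 0.0284. Alox5ap, the partner protein of Alox5, was at 43.6 ± 2.53 FPKM in Fth1-deleted and 21.4 ± 4.75 FPKM in floxed libraries (SD, n = 4 and 3; log2 difference 1.01, SE 0.26, limma adjusted p = 0.239). Hpgds, the prostaglandin D synthase of mast cells, ran the other way, at 1.87, 0.877, 1.02 and 0 FPKM in the Fth1-deleted libraries, against 3.05, 6.73 and 12.0 FPKM in the floxed libraries (log2 difference -2.03, SE 0.68, limma adjusted p = 0.382). Neither Alox5 nor Hpgds is restricted to mast cells. Srgn, the core protein that holds proteases in granules and is made by many blood cells, was at 538 ± 23.8 and 534 ± 94.0 FPKM (SD, n = 4 Fth1-deleted and 3 floxed).

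**Figure D3:**
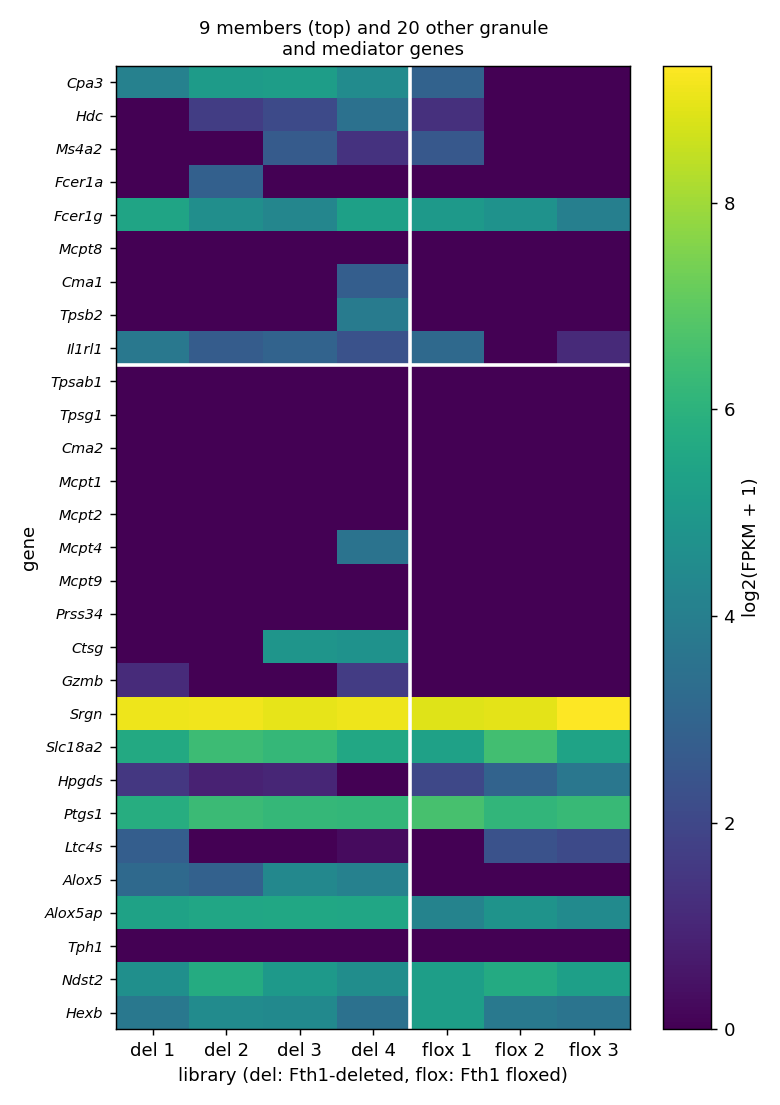
Log2(FPKM + 1) as colour for the 9 members (above the white line) and 20 other granule and mediator genes (below) in the 4 Fth1-deleted and 3 floxed libraries (columns). Tpsb2, Cma1 and Mcpt4 are coloured in Fth1-deleted library 4 alone, Alox5 in all 4 Fth1-deleted and no floxed library, and Srgn is bright throughout.

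Of 16 transcription factors of mast cells and basophils, all were tested and 0 rose or fell, with 10 positive and a median log2 difference of 0.09. Gata2, needed for both lineages, was at 370 ± 37.4 FPKM in Fth1-deleted and 344 ± 56.3 FPKM in floxed libraries (SD, n = 4 and 3; log2 difference 0.11, SE 0.17, limma adjusted p = 0.850; -0.030 without floxed library 1). Gata1 was at 127 ± 15.3 FPKM in Fth1-deleted and 90.2 ± 53.2 FPKM in floxed libraries (log2 difference 0.69, SE 0.36, limma adjusted p = 0.576). The difference of Gata1 was 1.12 without floxed library 1, 0.15 without floxed library 2 and 1.88 with the ribosomal RNA covariate. Mitf, which drives mast cell genes, was at 4.50 ± 3.16 FPKM in Fth1-deleted and 7.14 ± 2.80 FPKM in floxed libraries (log2 difference -0.68, SE 0.59, limma adjusted p = 0.726; -0.37 without Fth1-deleted library 3, -0.42 without floxed library 2 and -1.49 with the ribosomal RNA covariate). The groups did not overlap for 2 of the 16, Spi1 and Ikzf1, regulators of myeloid and lymphoid fate. Over all tested genes this held for 9.65%. Spi1 was at 140 ± 34.0 FPKM in Fth1-deleted and 82.1 ± 10.9 FPKM in floxed libraries (log2 difference 0.73, SE 0.23, limma adjusted p = 0.339), and Ikzf1 at 123 ± 23.3 and 83.9 ± 2.67 FPKM (0.52, SE 0.20, adjusted p = 0.440).

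Of 18 genes of IgE receptor signalling, 17 were tested and 0 rose or fell, with 9 positive and a median log2 difference of 0.09. Of the 17, 1 was lower without overlap of the groups, as were 5.55% of all tested genes. The smallest p-values were those of Plcg2, a phospholipase, and Lat2, a linker protein of mast cells. Plcg2 was at 56.9 ± 9.86 FPKM in Fth1-deleted and 84.8 ± 1.73 FPKM in floxed libraries, without overlap (log2 difference -0.58, SE 0.21, limma adjusted p = 0.423), and Lat2 at 22.3 ± 14.1 and 8.01 ± 6.93 FPKM (1.86, SE 0.84, adjusted p = 0.502). The log2 difference of Lat2 was 0.62 without floxed library 2 and 4.99 with the ribosomal RNA covariate (SE 0.99, limma adjusted p = 0.115).

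Of 24 receptors and surface proteins, 17 were tested and 0 rose or fell, with 9 positive and a median log2 difference of 0.08. Of the 17, 2 were higher without overlap of the groups, as were 4.1% of all tested genes. Il3ra, the interleukin-3 receptor chain of basophil and mast cell growth, was at 17.7, 40.2, 27.1 and 24.96 FPKM in the Fth1-deleted libraries, against 13.7, 4.48 and 6.49 FPKM in the floxed libraries, so the groups did not overlap (log2 difference 1.70, SE 0.43, limma adjusted p = 0.232). Its signalling partner Csf2rb was at 15.0 ± 6.23 FPKM in Fth1-deleted and 13.5 ± 5.63 FPKM in floxed libraries (log2 difference 0.13, SE 0.45, limma adjusted p = 0.939; -0.20 without floxed library 2 and -0.091 without Fth1-deleted library 2). Kit, the receptor for stem cell factor that mast cells keep and stem cells share, was at 254 ± 43.0 and 341 ± 77.7 FPKM (log2 difference -0.41, SE 0.20, adjusted p = 0.535; -0.24 without floxed library 3 and -0.14 with the ribosomal RNA covariate). Itgb7, an integrin of mast cell progenitors, was at 51.8 ± 27.8 and 91.6 ± 31.5 FPKM (log2 difference -0.93, SE 0.40, adjusted p = 0.483; -0.56 without Fth1-deleted library 3). Of 10 cytokine genes, 5 were tested, 0 rose or fell and all 5 were positive, with a median of 0.70. Ccl3 and Ccl4 had log2 differences of 1.81 (SE 0.99, limma adjusted p = 0.595) and 1.16 (SE 1.17, adjusted p = 0.764), and each was at 0 in 2 floxed libraries. With the ribosomal RNA covariate Ccl4 was at -2.34 and Ccl3 at 4.46, and with a library left out Ccl4 ranged from 0.42 (without floxed library 1 or 3) to 2.63 (without floxed library 2) and Ccl3 from 1.14 (without floxed library 1 or 2) to 3.16 (without floxed library 3).

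**Figure D4:**
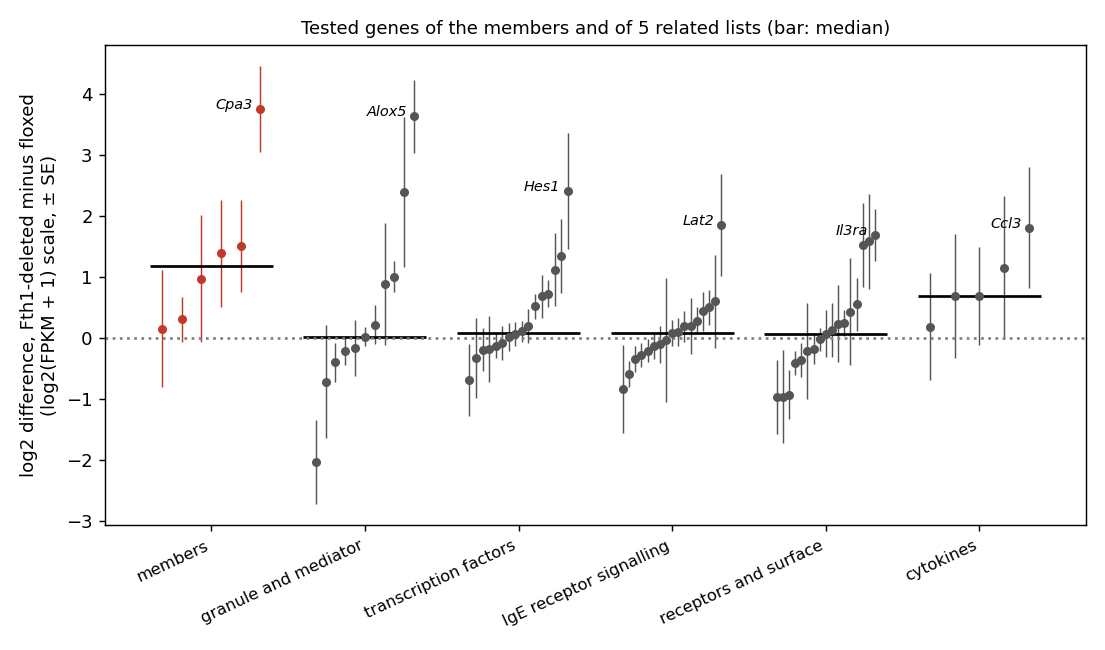
Log2 difference (Fth1-deleted minus floxed, vertical axis, bars of 1 SE) of each tested gene in the member list (red) and 5 related lists (grey), with a black line at each median. The member median is 1.18, against 0.03, 0.09, 0.09, 0.08 and 0.70 in the granule, transcription factor, signalling, receptor and cytokine lists, and Cpa3, at 3.76, stands at the top of the members.

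Markers of other cells that a stem cell sort could hold were read beside these values. Of 9 eosinophil genes, 3 were at 0 in all libraries, Epx among them, and the summed level was 5.55 to 9.26 FPKM in Fth1-deleted and 3.18 to 8.12 FPKM in floxed libraries. The only eosinophil gene tested was Siglecf (log2 difference 0.42, SE 0.87; -0.37 without floxed library 1). Of 15 neutrophil and myeloid progenitor genes, 12 were tested and 0 passed, with 10 positive and a median log2 difference of 1.83. Their summed level was 265 to 660 FPKM in Fth1-deleted and 227 to 398 FPKM in floxed libraries. Of the 12 tested, 1 was higher without overlap of the groups, as were 4.1% of all tested genes. Mpo, the myeloperoxidase of granule precursors, was at 23.4, 15.4, 84.2 and 135 FPKM in the Fth1-deleted libraries, against 2.33, 3.63 and 0.255 FPKM in the floxed libraries, without overlap (log2 difference 4.11, SE 0.72, limma adjusted p = 0.0803; 2.65 with the ribosomal RNA covariate). Ly6c2 had a log2 difference of 2.58 (SE 0.86, limma adjusted p = 0.377), and of 4.29 with that covariate. Of 13 monocyte and macrophage genes, 12 were tested and 0 passed. Their summed level was 192 to 358 FPKM in Fth1-deleted and 185 to 247 FPKM in floxed libraries, and C1qb and Cd68 led, with log2 differences of 2.84 (SE 0.65, limma adjusted p = 0.193) and 1.40 (SE 0.44, adjusted p = 0.353). With the ribosomal RNA covariate these were 1.47 for C1qb and 0.41 for Cd68, and without floxed library 3 Cd68 was at 0.87.

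Of 8 B cell genes, 7 were tested and 0 passed, and all 7 were positive, with a median log2 difference of 1.41. The summed level of the B cell genes was 24.2 to 87.8 FPKM in Fth1-deleted and 12.1 to 26.2 FPKM in floxed libraries. They were led by Vpreb1 (log2 difference 3.93, SE 0.72, limma adjusted p = 0.0918) and Igll1 (2.38, SE 0.94, adjusted p = 0.444). Of 7 T cell genes, Cd4 (1.11, SE 0.86) and Lck (-0.62, SE 0.90) were tested, and the summed level was 0 to 25.7 FPKM in Fth1-deleted and 4.86 to 8.95 FPKM in floxed libraries. Cd4 was at 1.69 without Fth1-deleted library 3 and 1.76 without floxed library 1, and Lck at 0.12 without Fth1-deleted library 3. Of 11 genes of NK and innate lymphoid cells, 4 were tested and 0 passed. Nkg7 (1.52, SE 0.45, limma adjusted p = 0.313) and Rora (-1.18, SE 0.62, adjusted p = 0.579) led that list, whose summed level was 97.6 to 181 FPKM in Fth1-deleted and 56.5 to 144 FPKM in floxed libraries. Without floxed library 1, Nkg7 had an adjusted p of 0.0271. Of 9 erythroid genes, 8 were tested and 0 passed, led by Epor (0.85, SE 0.33) and Hbb-bt (2.34, SE 0.94), with sums of 875 to 1614 FPKM in Fth1-deleted and 949 to 1321 FPKM in floxed libraries. Without floxed library 2 these differences were 0.56 for Epor and 0.98 for Hbb-bt, without floxed library 1 that of Epor was 1.28, and with the ribosomal RNA covariate they were 1.28 and 5.43. Of 16 stem cell genes, 0 rose and 1 fell, with 5 positive and a median of -0.41, and their sums were 788 to 1156 FPKM in Fth1-deleted and 1048 to 1678 FPKM in floxed libraries. Of 9 megakaryocyte genes, 8 were tested, and the 1 that fell is a gene of the stem cell list too. That call was lost when any library other than floxed library 1 was left out. The part of these cell types in the values of Cpa3 and Il1rl1 was not tested.

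The genes most like Cpa3 across the 7 libraries, by Pearson's r of log2(FPKM + 1) among tested genes with a mean of at least 5 FPKM, were Gsn (r = 0.995), Uhrf1 (0.989), Usp1 (0.979), Card9 (0.977) and Rin3 (0.971). Each is lower in floxed libraries 2 and 3 than in floxed library 1, and higher in the Fth1-deleted libraries, as Cpa3 is. Card9, a signalling adaptor of myeloid cells, was at 13.6, 15.2, 15.7 and 6.30 FPKM in the Fth1-deleted libraries, against 3.78, 0 and 0 FPKM in the floxed libraries. Gsn, an actin-severing protein, was at 38.1, 44.7, 42.9 and 38.8 FPKM in the Fth1-deleted libraries, against 26.4, 13.0 and 14.5 FPKM in the floxed libraries. For the other tested members the same measure named Phf14, Dus1l and Med24 for Hdc (0.929 to 0.958), Bcl2l13, Txnrd2 and Slc37a1 for Ms4a2 (0.961 to 0.992), Ccdc86, Capns1 and Vdac2 for Fcer1g (0.955 to 0.993) and Eml2, Dnah8 and Mki67 for Il1rl1 (0.968 to 0.986). For Tpsb2, 12 genes tied at r = 1.0, since any gene seen in that library alone has this pattern, and the immunoglobulin genes Ighv5-6, Ighv1-55 and Igkv10-96 were listed first. These values rest on 7 libraries and say nothing of a common function. Those of Cpa3 also rest on the group difference that it shares with its matches. The groups of Ms4a2 and Fcer1g overlapped, as did those of their matches.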

How the data were processed

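PolyA RNA of bone marrow hematopoietic stem cells was sequenced in 4 Fth1-deleted and 3 floxed libraries. Per the series text and the submitters' processing notes, reads were aligned to GRCm38 with HISAT2 2.0.4, and HTSeq 0.9.1 gave the count per gene. The authors deposited FPKM, made from gene length and read count; the annotation release, strand setting and filters are not given in the sources used here. Of 55855 identifiers, 55394 matched GENCODE M21. Reads were recovered by multiplying FPKM by the mean transcript length and dividing by each library's step; 98.8% to 99.4% of values under 50 reads were whole within 0.05 reads. A floor of 3 reads reflects counting error alone, because PCR duplicates were not told apart.

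Log2(FPKM + 1) was tested with limma 3.58.1 (R 4.3.3, trend, two-sided, no covariate) over every gene whose mean reached 1 FPKM. A check on simulated data came before it. The simulation gave all genes the same relative spread and no values at 0, so it does not cover genes seen in few libraries. The 4 and 3 libraries limit precision. Alternatives were pseudocounts 0.1 and 5, no filter or a mean of 5, size factors, quantile normalization, TPM rescaling and no trend. Further ones were arrayWeights, a replicate block, limma-voom on recovered reads and each library left out. The last, chosen after seeing the data, took the log2 of the ribosomal RNA share as a covariate. Transcripts were compared with blastn 2.17.0.

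The members and lists were chosen with earlier results of these data known. The naming rule takes all members, for each list the genes past the threshold or else those with the smallest p, 9 fixed genes (Kit, Gata2, Gata1, Mitf, Csf2rb, Tpsab1, Mcpt4, Prss34, Prg2), and the genes most like each tested member. Tyrobp, Il1rap, Il7r, Slc18a2, Srgn, Hpgds, Cd200r3, Cd3d, Cd3g and the genes seen in a single library were named after their values were seen. A gene that the rule names in the stem cell and megakaryocyte lists is not reported here by name.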

Additional observations from a re-analysis of the deposited data

Results flagged for a closer look

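Of 38 genes with reads in at least 1 Fth1-deleted library that were looked at, 6 had a highest value among the 4 libraries that stood apart by Dixon's 95% critical value. For 5 of them the other 3 libraries were at 0, so that the gap equals the whole range at any level, and Dixon's test says no more than that the gene was seen in 1 library. These were Tpsb2 at 13.9 FPKM, Mcpt4 at 10.7 FPKM, Cma1 at 5.93 FPKM and Prg2 at 2.98 FPKM in Fth1-deleted library 4, and Fcer1a at 6.20 FPKM in Fth1-deleted library 2. The remaining gene was Cd68, at 26.0 FPKM in Fth1-deleted library 1, with values above 0 in all 4. Chance flags about 1 in 20 groups of continuous values, a rate that does not apply to the genes at 0 elsewhere. Floxed libraries, 3 in number, were not examined in this way.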

How the results depend on the processing

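The number of members past the threshold was 0 under the reported analysis and every alternative except without floxed replicate 1, where it was 1 (Cpa3), so that leaving out a library gave 0 to 1. Over all genes the count was 8, and it moved to 0 without a filter, 17 without a trend, 5 with limma-voom, 2 with the ribosomal RNA covariate and 0 to 19 with a library left out (1 without Fth1-deleted library 3, and 19, 13 and 0 without floxed libraries 1, 2 and 3). Deviations of same-numbered libraries correlated at 0.0090, 0.061 and -0.037, within the range of differently numbered ones (-0.090 to 0.080). With so few libraries this cannot show whether the replicate numbers of the labels pair them. With the replicate block 0 genes passed over all genes, 0 members and 0 genes of the other lists, and Tpsb2 had a log2 difference of 0, since its library has no floxed partner. Genes of the other lists past the threshold numbered 1, against 0 without a filter, with the replicate block or with the ribosomal RNA covariate, and 0 to 2 with a library left out. The sign turned for Ms4a2 with arrayWeights (-0.054), and for Fcer1g (-0.12) and Ccl4 (-2.34) with the ribosomal RNA covariate. With a library left out, log2 differences ranged from -0.40 to 1.01 for Ms4a2, -0.37 to 0.96 for Siglecf, -1.23 to 0.12 for Lck, -0.030 to 0.20 for Gata2 and -0.20 to 0.40 for Csf2rb. The cause of these changes was not tested. Cpa3, Hdc and Il1rl1 kept a positive difference throughout, at 2.22 to 6.82, 0.60 to 3.54 and 0.68 to 3.90. The filter at a mean of 5 FPKM left no value for Hdc, Ms4a2 or Tpsb2. A member at 0 was below the level that 3 reads would give.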
